A study of Mus musculus with 4 samples.

Results

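The genes described here are 10 immediate early and AP-1 genes, Fos, Fosb, Jun, Junb, Jund, Egr1, Atf3, Ier2, Ier3 and Dusp1, of the 32479 genes counted in the dorsal epidermis of mice. They were picked by symbol, with earlier results of these data known, and each of the 10 symbols matched 1 gene. The 4 mice were C57BL/6N females at postnatal day (P) 19, all with floxed alleles of the ceramide synthase gene Cers4. The 2 controls were CerS4fl/flK14Cre- (titled WT), and the 2 CerS4epi-/- mice were CerS4fl/flK14Cre+, where Cre driven by K14 (keratin 14) acts in keratinocytes of the epidermis and their progeny, but not in immune cells. Back skin was digested with DNAse I, Liberase and papain at 37 °C for 60 min before capture on BD Rhapsody, a microwell system in which every captured RNA gets its own molecular barcode (UMI). The comparison asked how far these genes differed between genotypes in each cell type, in the T cells that do not carry the deletion as well as in keratinocytes.

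Immediate early genes are transcribed within minutes of a signal, without new protein synthesis, mainly through MAP kinases acting on serum response factor and its partners at promoters. Fos and Jun family proteins pair to form AP-1, a transcription factor that in the epidermis takes part in proliferation, differentiation and wound responses. The same genes are also switched on in many cell types while a tissue is digested into single cells, so their level in such data can carry both sources. Interfollicular epidermis (IFE) has a basal layer, differentiated layers and a keratinized layer, and the hair follicle has an upper part (uHF) and a bulge with an outer layer (OB) of stem cells and an inner layer (IB).

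The libraries held 39231945 to 53106317 estimated UMI counts, and 34150 barcodes passed as cells, with 1200 counts or more of which mitochondrial genes took no more than 20%. Marker genes put them into classes, named with the ending -like, of which 14753 cells were IFE basal-like, 9631 IFE differentiated-like, 1928 IFE keratinized-like, 3508 uHF-like, 419 OB-like, 189 IB-like, 213 Langerhans cell-like and 463 T cell-like. A further 73 sebaceous gland-like cells were too few for a test, and 8.71% of cells stayed unassigned. Once every cell was thinned to 1200 counts, the T cell marker Cd3e had a UMI in 86.2% to 91.5% of T cell-like cells. In IFE basal-like cells the share was 0.0305% to 0.137%. Median depths before thinning were 1541 to 1931 and 2648 to 3136 counts. Cd3e was itself among the markers that put cells into the T cell-like class, so this gap follows in part from the gate. Cers4 lay at 2876 and 3968 CPM (counts scaled to a total of 1000000) in the sebaceous gland-like cells of the controls, only 11 and 2 cells. In those of CerS4epi-/- mice, 26 and 34 cells, it lay at 293 and 418 CPM. T cell-like cells held 96.2 and 65.9 CPM against 77.2 and 103 CPM, on 10 to 40 counts per mouse. In the 3 IFE classes Cers4 had 16 counts or fewer per mouse in either genotype, too few to check the deletion there, and reads from the 3′ end may lie outside the deleted part. The CerS4epi-/- libraries stood apart in their mitochondrial share, with medians of 9.94% and 9.68% against 8.66% and 8.56%. No cell barcode was shared between the 2 control libraries or between the 2 CerS4epi-/- libraries, although random draws would give 87.1 and 77.1, while 64 to 102 were shared between libraries of different genotype. The mice of a genotype therefore appear to share a pool of barcodes, and the genotype cannot be told apart from anything else that the 2 libraries of a genotype have in common.

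In the IFE most of the 10 genes were higher in CerS4epi-/- mice, 9 of them past the test in differentiated cells, 9 in keratinized and 6 in basal cells, and the summed level of all 10 did not overlap between genotypes. The summed level of the 10 genes in IFE differentiated-like cells was 9381 and 6893 CPM in the controls and 13247 and 13283 CPM in CerS4epi-/- mice. Both CerS4epi-/- mice thus lay above both controls, by 1.63-fold on the means. In IFE keratinized-like cells the sums were 7343 and 5258 CPM against 9589 and 9416 CPM. In IFE basal-like cells, where the genes were highest, they were 17184 and 16576 CPM against 19133 and 20992 CPM, also without overlap.

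**Figure D1:**
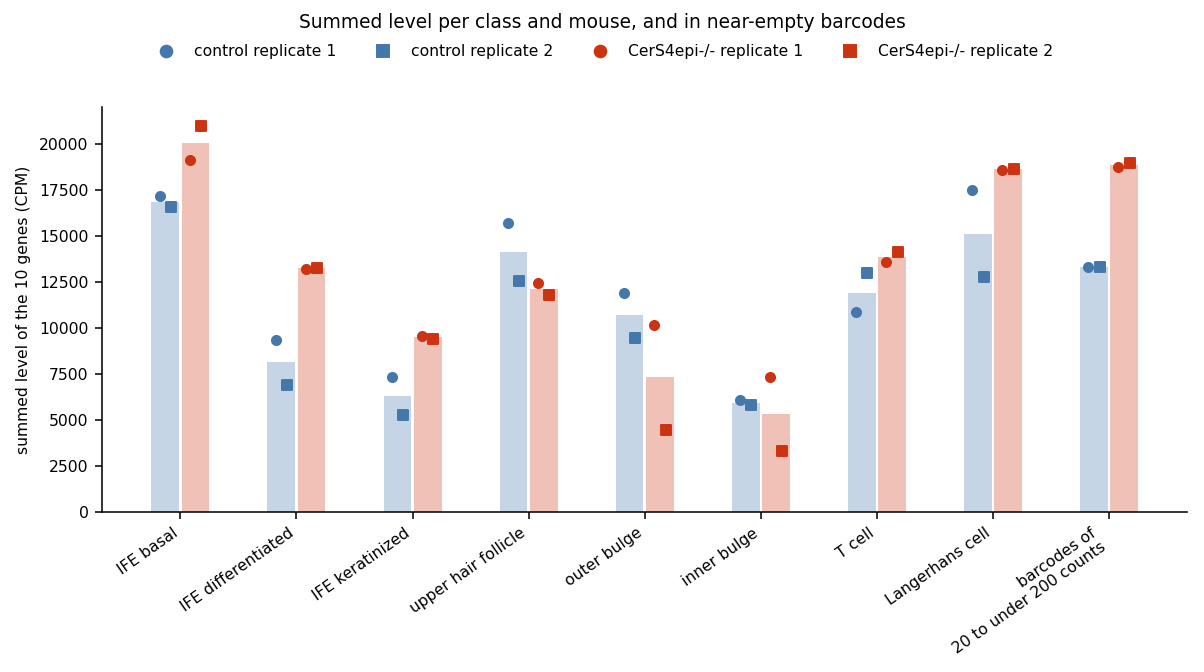
Summed level of the 10 genes in CPM (y axis, from 0) in each marker-gated class and in near-empty barcodes with fewer than 200 counts (x axis). Bars are means of 2 mice and points are single mice; the CerS4epi-/- points lie above the control points in the IFE, T cell-like and Langerhans cell-like classes and in the near-empty barcodes, and below them in the uHF-like class.

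In the quasi-likelihood test of edgeR, with p adjusted over all genes by Benjamini-Hochberg, 9 of the 10 genes rose in IFE differentiated-like cells, where 3.57% of all 13133 genes tested were called higher, 3.02% lower and 6.59% in either direction. Their median log2 fold change was 0.72, beside 0.003 for all genes. In IFE keratinized-like cells 9 of 10 rose as well, against 2.34% of genes called higher, 1.87% lower and 4.21% in all, with a median of 0.63. In IFE basal-like cells 6 of 10 rose, against 4.4% called higher, 2.91% lower and 7.32% in all, with a median of 0.30. None of the 10 fell in these 3 classes. Counted without a test, both CerS4epi-/- mice lay above both controls for 10 genes in differentiated, 9 in keratinized and 7 in basal cells, as 28.8%, 25.4% and 21.1% of all genes did. DESeq2 called 6 of the 10 in basal, 7 in differentiated and 6 in keratinized cells. It did not call Fosb and Junb in differentiated cells (DESeq2, adjusted p = 0.147 and 0.158) or Egr1, Fos and Fosb in keratinized cells (DESeq2, adjusted p = 0.504, 0.306 and 0.523). Leaving out a mouse gave 8 to 10 genes in differentiated cells, but 5 in keratinized cells without CerS4epi-/- 1 and 2 in basal cells, Fos and 1 other gene, without control 1 or without control 2. With 2 mice per genotype an exact permutation test cannot give a p below 0.333, so the calls rest on the spread that edgeR shares across genes.

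**Figure D2:**
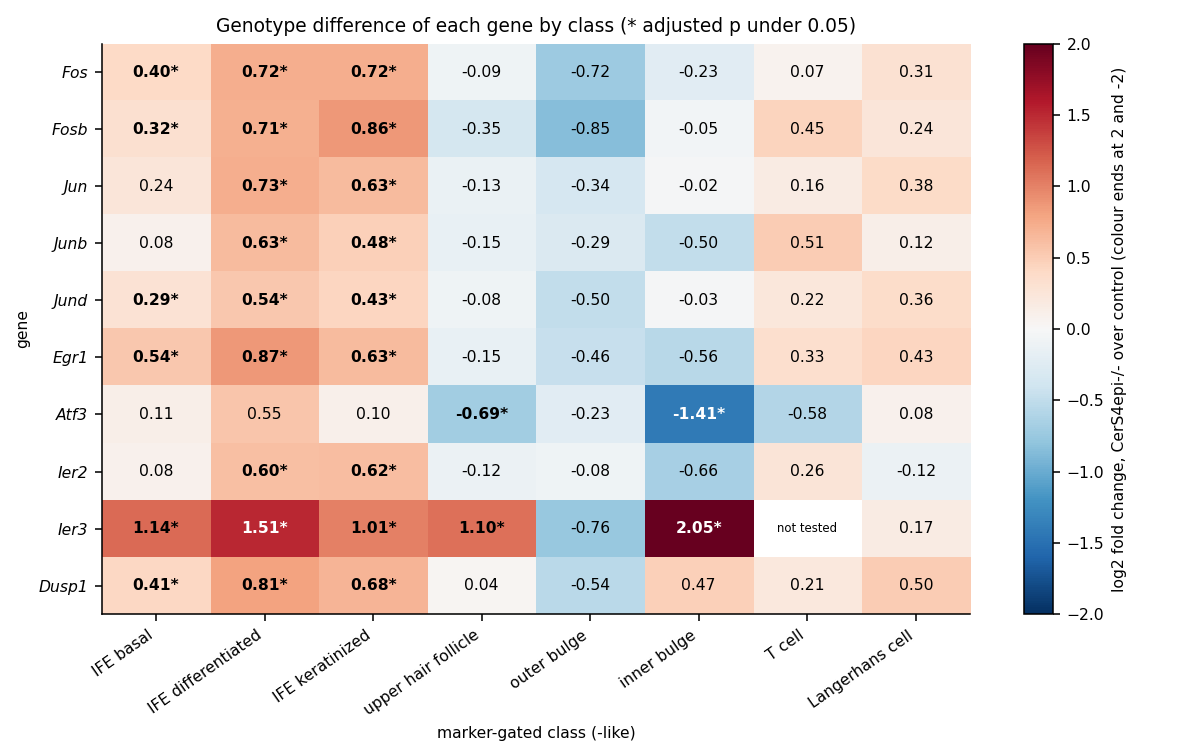
Log2 fold change of CerS4epi-/- over control mice for each gene (rows) in each class (columns), from edgeR's quasi-likelihood test on 2 mice per genotype. Colour and number give the size and an asterisk marks an adjusted p under 0.05; red values fill the 3 IFE columns, and the 3 follicle columns hold mostly values below 0, with Ier3 above 0 in the upper hair follicle and inner bulge and Dusp1 above 0 in the same 2 columns.

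The Fos family opens the list of AP-1 subunits. Fos (chromosome 12, 85520658 to 85524047, plus strand of GRCm39) is the classical immediate early gene, whose protein dimerizes with Jun proteins. Fos and Fosb were the 2 of the 10 genes in which this search found a CArG box, the site of serum response factor. It covered both strands of the 500 bases before a single annotated transcription start per gene. Of 21502 promoters of protein-coding genes of the same length, 2.78% held such a box. The window had been lengthened after 250 bases held no box in the 10 genes, so setting them beside this share is not a test. The stretches around both boxes are shown because they are the element through which MAP kinase signals are known to reach these genes. They are given 5′ to 3′ on the strand of the gene with the box in capitals, from GRCm39.
Fos, chr12:85520340-85520379, plus strand: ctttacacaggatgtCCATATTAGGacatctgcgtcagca
Fosb, chr7:19044218-19044257, minus strand: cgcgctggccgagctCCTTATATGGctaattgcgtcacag
The box lies 294 to 303 bases before the start of Fos and 257 to 266 bases before that of Fosb. Of other motifs, the TGACGTCA site of CREB and ATF proteins was found in Dusp1, Ier2 and Jund and in 1.96% of all promoters. The pattern TGANTCA, a loose form of the AP-1 site with any base at its centre, was found in Fos, as TGAATCA, and in 12.3%. The TATA box TATAAA was found in Fos and Junb and in 15.5%, and the EGR site GCGTGGGCG in none of the 10 and in 0.735%. A match describes the letters in this window and no more. A gene without a match may hold the motif elsewhere, as at another start, which was not searched.

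Fos lay at 3938 and 3738 CPM in the IFE basal-like cells of the controls and at 4780 and 5005 CPM in those of CerS4epi-/- mice. Its log2 fold change there was 0.40 ± 0.068 (SE, n = 2 mice per genotype; adjusted p = 0.0129, edgeR). In differentiated cells Fos lay at 2321 and 1701 CPM against 3336 and 3321 CPM, a log2 fold change of 0.72 ± 0.128 (edgeR, adjusted p = 0.0136). The genotypes did not overlap in either class, and the CerS4epi-/- level in differentiated cells stayed below the control level in basal cells. Fosb (chromosome 7, 19036621 to 19043976, minus strand), a second Fos family subunit, moved alike: 2129 and 2033 CPM against 2412 and 2585 CPM in basal cells, and 1056 and 724 CPM against 1521 and 1409 CPM in differentiated cells. It rose by 0.32 ± 0.0694 and by 0.71 ± 0.15 on the log2 scale (edgeR, adjusted p = 0.0317 and 0.0268), the latter 0.47 without control 2. In keratinized cells Fosb was low, at 358 and 191 CPM against 536 and 459 CPM, and rose by 0.86 ± 0.201 (edgeR, adjusted p = 0.0359). That value was 1.36 without control 1 and 0.49 without control 2, and the call was lost without CerS4epi-/- 1 and in DESeq2.

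The Jun family comprises the partner subunits. Jun (chromosome 4, 94937271 to 94940459) promotes proliferation in many settings, and its levels in differentiated cells, at 1742 and 1344 CPM against 2595 and 2541 CPM, did not overlap between genotypes. Jun rose there by 0.73 ± 0.113 (edgeR, adjusted p = 0.00879). In basal cells it lay at 3720 and 3818 CPM against 4036 and 4535 CPM, with a log2 fold change of 0.24 ± 0.0763 that missed the threshold (edgeR, adjusted p = 0.103). Junb (chromosome 8, 85701113 to 85705359), often an antagonist of Jun, overlapped between genotypes in basal cells, at 1480 and 1390 CPM against 1343 and 1577 CPM. It rose in differentiated cells by 0.63 ± 0.137, from 810 and 571 CPM to 1046 and 1101 CPM (edgeR, adjusted p = 0.0309), a value of 0.40 without control 2 and a call that DESeq2 did not make. Jund (chromosome 8, 71151599 to 71153265), the least inducible of the family, rose in all 3 IFE classes, by 0.29 ± 0.0694 in basal, 0.54 ± 0.107 in differentiated and 0.43 ± 0.102 in keratinized cells (edgeR, adjusted p = 0.0451, 0.0214 and 0.0394), and was called in none of the 3 without control 2. Its smallest gap between genotypes was in basal cells, at 2063 and 2028 CPM against 2307 and 2501 CPM. Jun, Junb, Jund and Dusp1 overlap other counted genes (Junos, Prdx2, Gm11175, and Ergic1 with Gm50275) in the annotation read for positions. All of these lie on the opposite strand except Gm50275, which shares the strand of Dusp1. The annotation read for positions is a later Gencode release than the one used for the counts, in which the overlaps may differ. The effect of the overlaps on the counts was not tested.

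**Figure D3:**
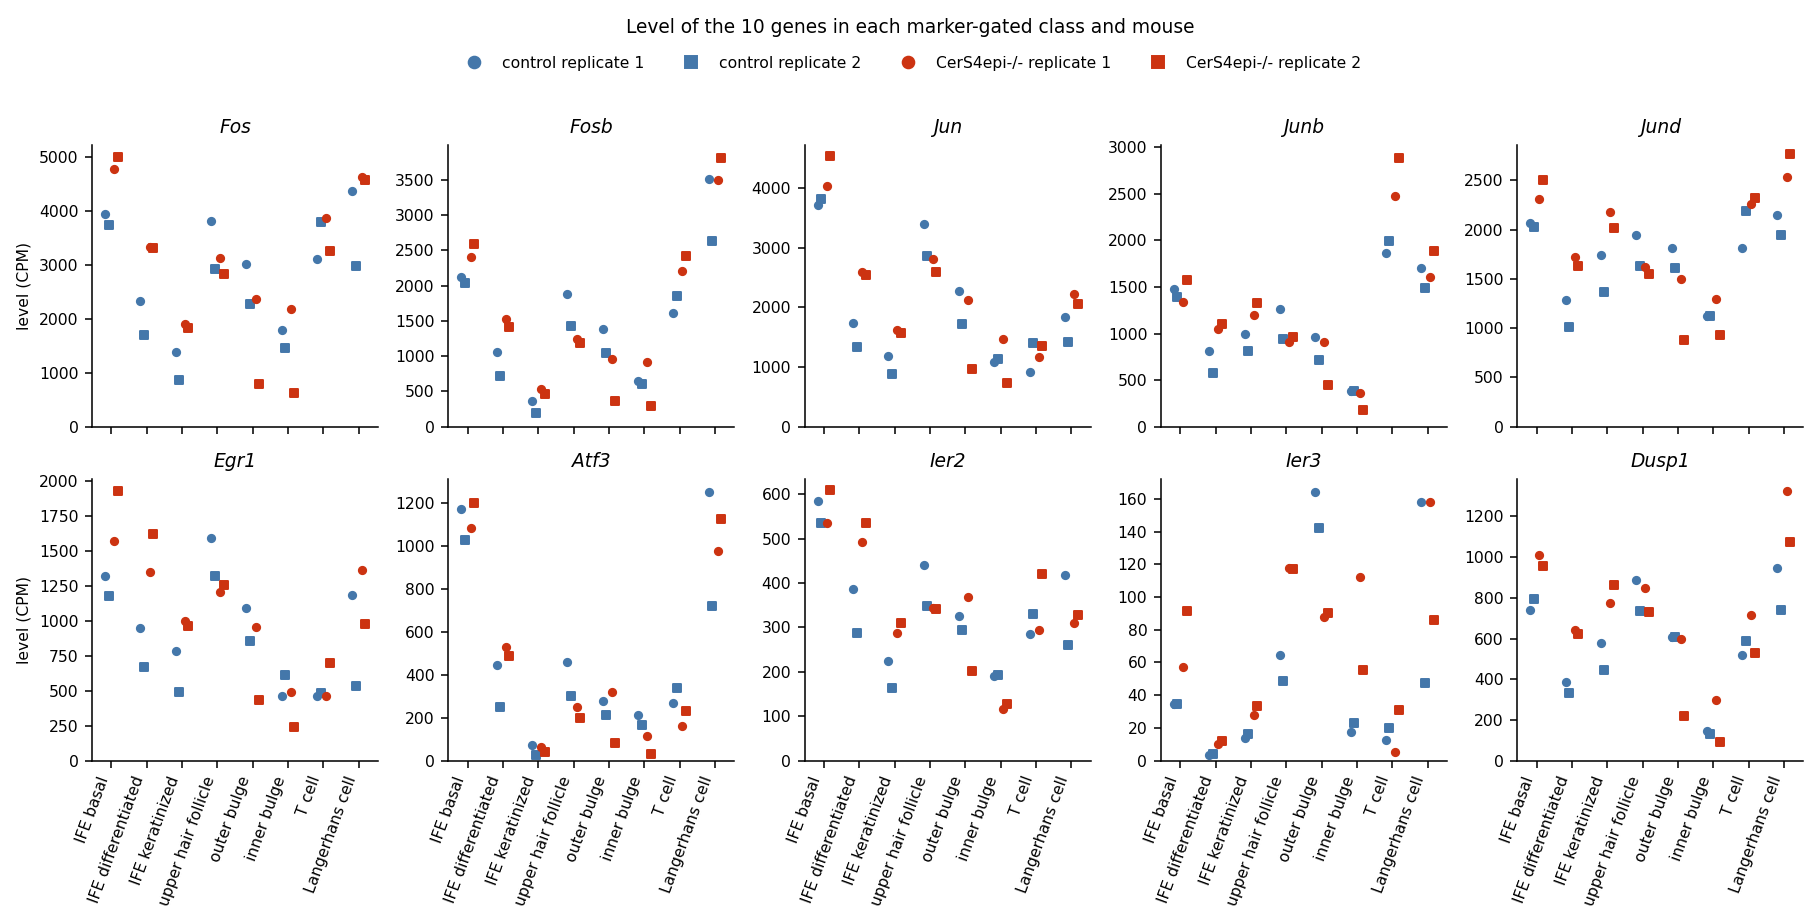
Level in CPM (y axis, from 0, a separate scale for each gene) of each of the 10 genes in 8 marker-gated classes (x axis). Points are single mice, 2 per genotype; the CerS4epi-/- points lie above both controls for all 10 genes in the IFE differentiated class.

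Egr1 (chromosome 18, 34992876 to 34998049) encodes a zinc finger transcription factor induced beside Fos by MAP kinase signalling. It rose from 1321 and 1177 CPM to 1569 and 1930 CPM in basal cells, by 0.54 ± 0.104 on the log2 scale (edgeR, adjusted p = 0.0211). In differentiated cells the levels were 947 and 666 CPM against 1350 and 1618 CPM, a change of 0.87 ± 0.149 (edgeR, adjusted p = 0.0123). No control mouse reached a CerS4epi-/- mouse in either class. Atf3 (chromosome 1, 190902493 to 190950241), a stress-induced bZIP factor that can pair with Jun proteins, was the member without a call in the 3 IFE classes. Its levels overlapped in basal cells, at 1173 and 1027 CPM against 1085 and 1202 CPM, and in keratinized cells, at 72.3 and 27.0 CPM against 63.4 and 39.2 CPM. In differentiated cells Atf3 lay at 443 and 249 CPM against 531 and 488 CPM, without overlap, and its log2 fold change of 0.55 ± 0.211 did not pass (edgeR, adjusted p = 0.159).

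Of the small response genes, Ier2 (chromosome 8, 85387960 to 85389483), a short-lived nuclear protein, overlapped in basal cells, at 585 and 536 CPM against 534 and 610 CPM, and rose in differentiated cells from 386 and 287 CPM to 493 and 535 CPM. Its log2 fold change in the latter was 0.60 ± 0.122 (edgeR, adjusted p = 0.0228). Ier3 (chromosome 17, 36132568 to 36133815), an immediate early gene linked to survival and NF-κB signalling, had the largest fold change of the 10 in each IFE class, though in keratinized cells Fosb passed it without control 1, without CerS4epi-/- 2 and under the stricter gate. In basal cells it lay at 34.8 and 34.7 CPM in the controls, which nearly coincided, and at 57.1 and 91.6 CPM in CerS4epi-/- mice. It rose by 1.14 ± 0.194 in basal, 1.51 ± 0.166 in differentiated and 1.01 ± 0.177 in keratinized cells (edgeR, adjusted p = 0.0131, 0.00198 and 0.00829; the basal call was lost without control 1 or without control 2), from 63 and 86 counts to 163 and 129 counts in the second of these classes. Dusp1 (chromosome 17, 26724564 to 26781102) encodes a phosphatase that switches MAP kinases off and is itself induced by them. Its levels were 740 and 796 CPM against 1009 and 957 CPM in basal cells and 388 and 331 CPM against 643 and 623 CPM in differentiated cells. Dusp1 rose by 0.41 ± 0.0721 and by 0.81 ± 0.0857 (edgeR, adjusted p = 0.015 and 0.00169), and neither pair of groups overlapped.

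Over all kept cells together, 6 of the 10 genes rose (8.18% of 16034 genes called higher, 6.08% lower, 14.3% in all), with a median log2 fold change of 0.44. The 6 were Jun, Jund, Egr1, Fos, Dusp1 and Ier3, by 0.38 (Jund) to 1.49 (Ier3). This value mixes the changes within classes with the shares of the classes, since the controls gave 2718 and 3200 IFE differentiated-like cells and the CerS4epi-/- mice 2122 and 1591, and 630 and 418 uHF-like cells against 1231 and 1229. Leaving out control 1 gave 10 genes, and leaving out control 2, CerS4epi-/- 1 or CerS4epi-/- 2 gave 3, 3 and 2.

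The uHF-like cells gave other values than the IFE. The summed level was 15747 and 12545 CPM in the controls and 12478 and 11778 CPM in CerS4epi-/- mice, so both CerS4epi-/- mice lay below both controls, control 2 by little. On the CPM scale 35.7% of all genes lay below in this way. The scaling used for the tests (TMM) moved CerS4epi-/- values up by 0.09 on the log2 scale here, and the sum was not read on that scale. A single member rose and 1 fell (7.78% of 10636 genes called higher, 5.69% lower, 13.5% in all). Ier3 rose from 64.7 and 48.7 CPM to 118 and 117 CPM, by 1.10 ± 0.141 (edgeR, adjusted p = 0.000317). Atf3 fell by 0.69 on the log2 scale (SE 0.173; edgeR, adjusted p = 0.0214), from 460 and 301 CPM to 251 and 199 CPM, a call lost without control 1 or without CerS4epi-/- 2. Fos lay at 3822 and 2923 CPM against 3129 and 2836 CPM, which overlap. The other 8 genes were between -0.35 (Fosb) and 0.04 (Dusp1) on the log2 scale.

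The difference between uHF-like and IFE cells in the genotype effect was tested within mice. Against IFE basal-like cells the effect was lower in uHF-like cells for 4 of the 10 genes (4.21% of 13146 genes called higher, 4.04% lower, 8.25% in all). These were Atf3, Fosb, Egr1 and Fos, at -0.75, -0.63, -0.66 and -0.46 on the log2 scale (edgeR, adjusted p = 0.000405, 0.000283, 0.00011 and 0.00725). Without control 1 the count was 1, and without CerS4epi-/- 1 it was 7. Against IFE differentiated-like cells, a comparison added after the class changes had been seen, 9 of 10 were lower (4.24% of 12701 genes called higher, 4.35% lower, 8.59% in all), from -0.62 (Jund) to -1.23 (Atf3), and each mouse could be left out with 9 still called. Ier3 was the exception, at -0.39 (95% interval -0.86 to 0.07). Beside these values, the uHF-like class itself differed between genotypes. Its median mitochondrial share was 6.99% and 6.28% in the controls and 9.53% and 9.02% in CerS4epi-/- mice, its 6 basal keratinocyte markers summed to 2811 and 2463 CPM against 4602 and 5108 CPM, and its 5 markers of differentiated IFE to 16610 and 18190 CPM against 10840 and 10260 CPM. Their part in the result was not tested beyond the bins that follow.

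The share of counts on the 10 genes was also read within bins of mitochondrial share and of counts per cell. In IFE differentiated-like cells the 10 genes took a larger share of the counts in both CerS4epi-/- mice than in both controls in each of 6 bins, by 1.33-fold in cells of 1200 to 2000 counts, 1.33-fold in those of 2000 to 5000 and 1.76-fold above, and by 1.63-fold to 1.81-fold across the 3 mitochondrial bins. In IFE basal-like cells the ratio was 1.26 and 1.29 in the 2 mitochondrial bins with enough cells. By counts it was 1.06 with overlap between genotypes in the shallowest cells, 1.17 in the next bin and 1.28 in the deepest. In uHF-like cells it was 0.651 in cells with up to 5% mitochondrial counts, where the controls held 1.95% and 1.54% of counts on the 10 genes and CerS4epi-/- mice 1.12% and 1.15%. It was 0.974 and 1.09 in the other 2 bins, both with overlap. By counts it was 1.07 with overlap in the shallowest uHF-like cells, as in the basal cells of that bin, and 0.848 and 0.705 without overlap in the deeper bins.

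**Figure D4:**
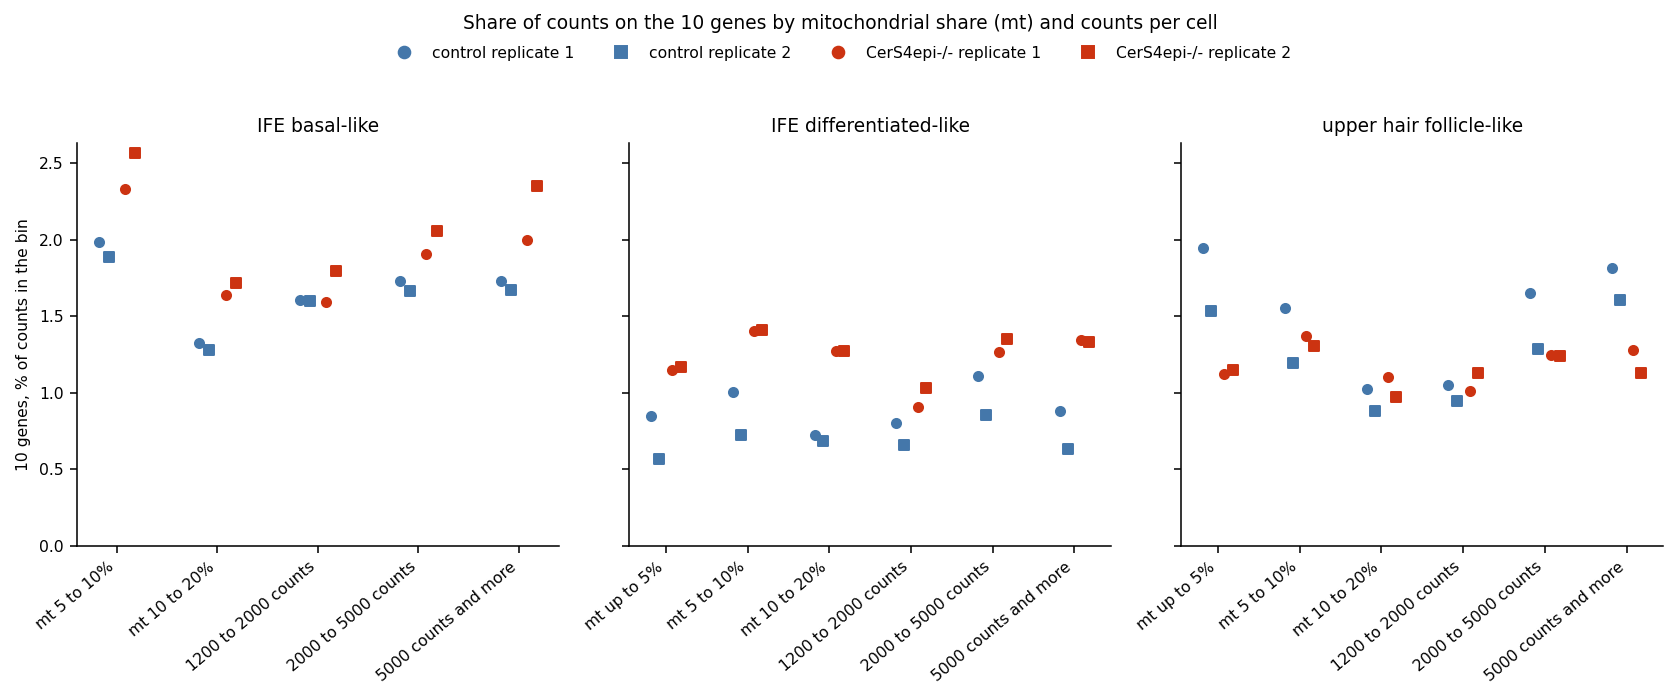
Percent of the counts in a bin that fell on the 10 genes (y axis, from 0), by mitochondrial share (mt) and by counts per cell (x axis), in 3 classes. Points are single mice; CerS4epi-/- points lie above the controls in all differentiated bins, and below them in uHF-like cells with up to 5% mitochondrial counts and with 2000 or more counts.

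In the bulge the values were too scattered between the CerS4epi-/- mice for most calls. OB-like cells held 11913 and 9467 CPM of the 10 genes in the controls and 10186 and 4467 CPM in CerS4epi-/- mice, CerS4epi-/- 2 being far below the other 3. None of the 10 was called (2.88% of 6458 genes called higher, 3.45% lower, 6.33% in all; edgeR called 0 members, 2 at an unadjusted p under 0.05, DESeq2 0), with a median log2 fold change of -0.48. Fosb was lowest at -0.85 ± 0.354 (edgeR, adjusted p = 0.218), from 1383 and 1040 CPM to 958 and 363 CPM, and Ier3, at 164 and 142 CPM against 87.7 and 90.4 CPM, was below the controls here. Without CerS4epi-/- 1 the group is CerS4epi-/- 2 alone, so the calls of that fit describe this mouse and are not read as a genotype difference. Beside this, the 4 IB markers summed to 8438 CPM in the OB-like cells of CerS4epi-/- 2 and to 2967 to 3546 CPM in the other mice, and the median mitochondrial share there was 11.5% against 8.21% to 9.69%. Their part was not tested.

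IB-like cells, 36 to 63 per mouse, gave 1 gene higher and 1 lower (3.09% of 3655 genes called higher, 3.72% lower, 6.81% in all). Ier3 rose by 2.05 ± 0.523 (edgeR, adjusted p = 0.00561) on 5 and 5 counts in the controls and 24 and 11 counts in CerS4epi-/- mice. Atf3 fell by 1.41 (SE 0.334; edgeR, adjusted p = 0.00229), from 214 and 165 CPM to 112 and 30.4 CPM. Neither call was made by DESeq2 or without control 1, 5 genes were called lower and none higher without CerS4epi-/- 1, and 2 higher and none lower without CerS4epi-/- 2.

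T cell-like cells, which do not carry the deletion, were compared in the same way. Their 10 genes summed to 10860 and 12980 CPM in the controls and 13627 and 14149 CPM in CerS4epi-/- mice, without overlap and 1.17-fold apart. Junb lay at 1860 and 1990 CPM against 2477 and 2891 CPM and Fosb at 1609 and 1858 CPM against 2214 and 2424 CPM, in both cases with both CerS4epi-/- mice above both controls. Such a gap upward was found for 3 of the 10 genes and in 19.4% of all genes, and downward for 1 (Atf3) and in 21.6%. Fos overlapped, at 3114 and 3795 CPM against 3876 and 3250 CPM. None of the 9 genes tested was called (1% of 5481 genes called higher, 0.164% lower, 1.17% in all; edgeR called 0, 3 at an unadjusted p under 0.05, DESeq2 0), with a median of 0.22. Junb had 0.51 ± 0.149, Fosb 0.45 ± 0.152 and Atf3 -0.58 ± 0.237 (edgeR, adjusted p = 0.158, 0.256 and 0.396), and the 95% interval of Fos, at 0.07, ran from -0.25 to 0.39. Ier3 was not tested, on 2 to 12 counts per mouse. Without CerS4epi-/- 1, 1 gene was called higher.

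The genotype effect in T cell-like cells was then set against that in keratinocytes of the same mice. Against IFE basal-like cells no member was called (0.471% of 13161 genes called higher, 0.175% lower, 0.646% in all; edgeR called 0, 2 at an unadjusted p under 0.05). The difference for Fos was -0.29 with a 95% interval of -0.69 to 0.12, and for Jund -0.01 with an interval of -0.41 to 0.39. For Egr1 it was -0.19 with an interval of -0.63 to 0.25, and for Dusp1 -0.17 with an interval of -0.61 to 0.26. For Junb it was 0.47 with an interval of 0.08 to 0.87, for Atf3 -0.66 with an interval of -1.15 to -0.16, and for Fosb 0.18 with an interval of -0.22 to 0.58. The intervals of Junb and Atf3 left out 0, and those of the other 8 genes held it. The negative of the basal fold change, at which T cell-like cells would have no genotype difference, lay inside the intervals of 7 genes and outside those of Junb, Atf3 and Fosb. Against IFE differentiated-like cells, a comparison added later, 1 of 10 was lower (0.645% of 12862 genes called higher, 0.14% lower, 0.785% in all), namely Atf3 at -1.15 ± 0.296 (edgeR, adjusted p = 0.04), a call lost without control 2 (-0.60) or without CerS4epi-/- 1 (-0.75), when another member was called. Fos was at -0.64 there, with an interval of -1.12 to -0.16 and an adjusted p of 0.392 (edgeR). At an unadjusted p under 0.05 (edgeR) 5 of the 10 were lower, among them Jun, Dusp1 and Egr1 at -0.54, -0.59 and -0.56. The median of the 10 was -0.55 against differentiated cells and -0.09 against basal cells.

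Keratinocyte transcripts were also counted in T cell-like cells. The 8 keratinized IFE markers summed to 677 and 837 CPM in the controls and to 8515 and 5231 CPM in CerS4epi-/- mice, and the 6 uHF markers to 1388 and 1552 CPM against 4439 and 5165 CPM. The 5 markers of differentiated IFE, the largest of the 4 sums, overlapped at 13910 and 11890 CPM against 12500 and 10060 CPM, as did the 6 basal markers at 3144 and 4569 CPM against 1204 and 3496 CPM. The median T cell-like cell of a mouse had 0.147% to 0.25% of its counts on the keratinocyte lists, while the share over all of them was 1.89% to 2.67%. With the T cells held to at most 2% of such counts (94 and 55 cells in the controls, 133 and 131 in CerS4epi-/- mice), an alternative chosen after seeing the data, Atf3 changed sign. It then lay at 121 and 129 CPM against 124 and 167 CPM, with a log2 fold change of 0.23 ± 0.311 in place of -0.58, and its difference from differentiated cells was -0.14 ± 0.354 and no longer called. Junb was at 0.51 ± 0.119 and Fosb at 0.51 ± 0.122 (edgeR, adjusted p = 0.118 and 0.133). The summed level was 11167 and 12913 CPM against 14642 and 14847 CPM. The number of all genes called between genotypes in T cell-like cells went from 64 to 3.

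**Figure D5:**
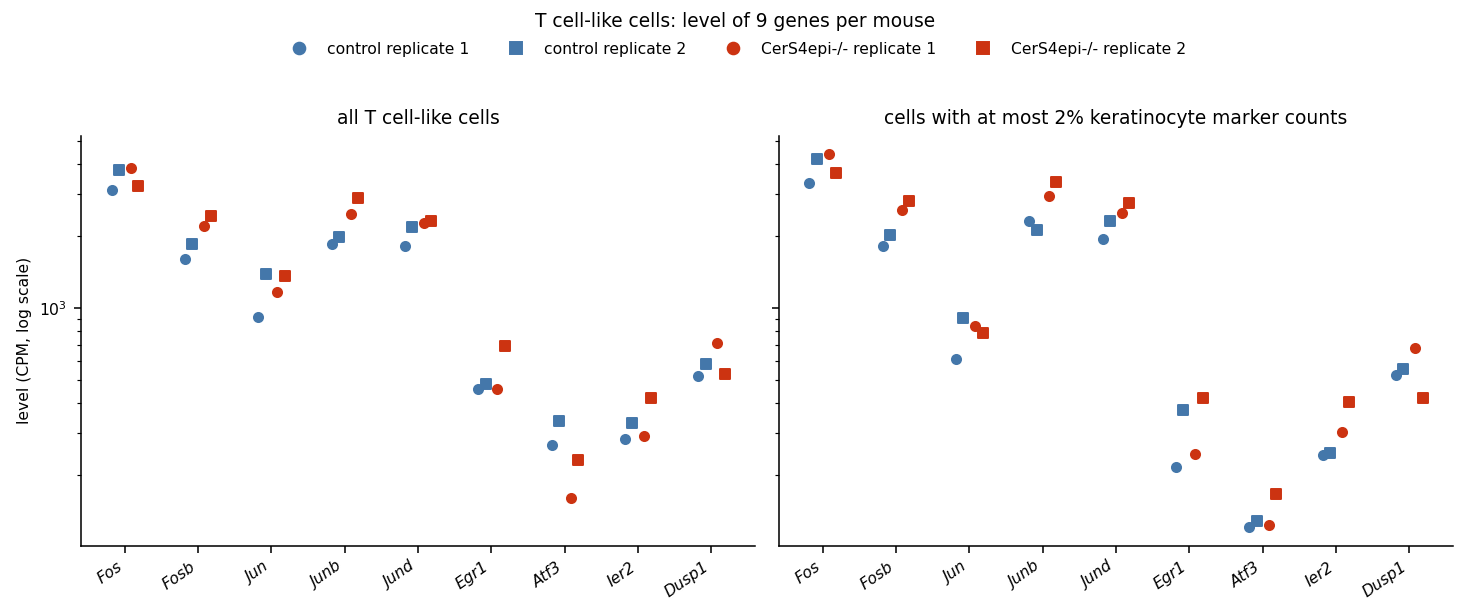
Level in CPM (y axis, log scale) of 9 genes in T cell-like cells of each mouse, for all such cells (left) and for those with at most 2% of counts on keratinocyte marker lists (right). Junb and Fosb points of CerS4epi-/- mice lie above both controls on both sides, while Atf3 points lie below the controls on the left, and overlap them on the right.

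Langerhans cell-like cells, the other immune class, held 17526 and 12762 CPM in the controls and 18627 and 18673 CPM in CerS4epi-/- mice. The CerS4epi-/- mice were above both controls, with control 1 near them and control 2 far below. None of the 10 genes was called (0.369% of 3256 genes called, all of them higher; edgeR called 0, none at an unadjusted p under 0.05, DESeq2 0), with a median of 0.28. Dusp1 was highest at 0.50, with a 95% interval of -0.09 to 1.08, and Fos was at 0.31, with an interval of -0.23 to 0.86. Without control 1, 2 genes were called higher.

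Barcodes with too few counts to be cells were summed as well. In those with 20 or more but fewer than 200 counts, which can hold free RNA, the summed level was 13308 and 13338 CPM in the controls and 18795 and 18977 CPM in CerS4epi-/- mice, 1.42-fold apart. All 10 genes were higher in both CerS4epi-/- mice than in both controls there. The share of all genes with such a gap was not counted in these barcodes, and over all kept cells it was 31.2%. Fos lay at 2430 and 2278 CPM against 3511 and 3490 CPM, Egr1 at 853 and 815 CPM against 1513 and 1513 CPM, and Ier3 at 18.1 and 25.6 CPM against 72.1 and 70.9 CPM. The part of such RNA in the values of the classes was not tested.

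Between classes, levels were set beside each other as means of the 4 mice. Their SDs hold the genotype difference and do not use that each mouse gave every class. The summed level was highest in IFE basal-like cells, at 18471 ± 2004 CPM (SD, n = 4 mice), followed by Langerhans cell-like (16897 ± 2807), uHF-like (13137 ± 1775), T cell-like (12904 ± 1444), IFE differentiated-like (10701 ± 3130), OB-like (9009 ± 3197), IFE keratinized-like (7901 ± 2036) and IB-like cells (5643 ± 1695), and no neighbours in this order differed by more than their SDs. Within each mouse, Langerhans cell-like cells lay above uHF-like cells and T cell-like above IFE differentiated-like cells. The other neighbours changed order between mice. Of the single genes, Fosb stood highest in Langerhans cell-like cells, at 3367 ± 506 CPM, above the 2290 ± 254 CPM of IFE basal-like cells beyond the SDs. Jun stood highest in IFE basal-like cells, at 4027 ± 364 CPM against 2920 ± 342 CPM in uHF-like cells, also beyond the SDs. Atf3 was near equal in IFE basal-like and Langerhans cell-like cells, at 1122 ± 80.6 and 1019 ± 228 CPM, and at 428 ± 124 CPM in the next class, IFE differentiated-like cells. Junb was highest in T cell-like cells, at 2305 ± 473 CPM, against 1672 ± 169 CPM in Langerhans cell-like cells. This gap was not beyond the SDs, though T cell-like cells were higher in each mouse.

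Tested against IFE basal-like cells with the mouse as a block, 8 of the 10 genes were lower in differentiated cells, from -0.43 (Jund) to -2.62 (Ier3), where 36.1% of genes were called higher, 38.6% lower and 74.7% in all. In T cell-like cells Junb was higher by 0.49 ± 0.115 and 8 were lower (20.4% of genes called higher, 25.1% lower, 45.5% in all), among them Atf3 at -2.40, Jun at -1.91 and Egr1 at -1.69. In Langerhans cell-like cells Fosb and Ier3 were higher, by 0.55 and 1.15, and 3 were lower (16.8% and 18%, 34.8% in all). The IB-like cells had 9 lower (13.3% and 16.6%, 30% in all). The OB-like cells had 9 lower and Ier3 higher by 1.25 (17.2% and 17.6%, 34.8% in all), the latter call lost without control 2. The uHF-like cells had 4 lower and Ier3 higher by 0.91 (29.2% and 33.4%, 62.6% in all). Without control 1 no gene was called higher in Langerhans cell-like cells. In uHF-like cells the number of genes called in all was 8 without control 1, and 3 without CerS4epi-/- 1 or without CerS4epi-/- 2. Keratinized cells depended on the scaling. TMM scaling moved their values up by 1.13 on the log2 scale against basal cells, and on that scale Dusp1, Junb and Jund were higher, by 0.70, 0.69 and 0.83, and 4 genes lower (37.8% of genes called higher, 46.8% lower, 84.6% in all). On the CPM scale the same 3 genes were lower in keratinized than in basal cells of each mouse, with ratios of 0.561 to 0.899, 0.584 to 0.895 and 0.672 to 0.944. Atf3 was at 0.0263 to 0.0616 of its basal level, and was lower on the TMM scale too, at -3.38.

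Within the IFE basal-like cells of a mouse, thinned to 1200 counts, Fos had a UMI in 88.8% to 92.0% of cells, Jun in 87.5% to 88.8% and Egr1 in 63.1% and 57.7% in the controls and 72.9% and 76.7% in CerS4epi-/- mice. In the same cells without thinning the share for Egr1 was 78.9% and 74.8% against 87.3% and 89.2%. T cell-like cells had a Fos UMI in 91.4% to 95.5% of cells after thinning, but an Egr1 UMI in 22.7% to 35.2% and an Atf3 UMI in 11.9% to 15.9%. No class taken to lack these genes was at hand to give a background share, and the part of free RNA in them was not tested. Thinning left out 29 control and 39 CerS4epi-/- cells. Across IFE basal-like cells of a mouse, Spearman correlations of thinned counts were 0.491 to 0.529 for Fos with Fosb and 0.471 to 0.543 for Fos with Jun, and 0.112 at most for any pair with Ier3; the cells share 1 library per mouse, and the values are a description.

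The genes with the most similar pattern were sought over 32 sums of 4 mice and 8 classes, by Pearson's r of log2 CPM with the mean of the 10 genes among 3388 genes with at least 50 CPM on average. They were Zfp36 (0.939), a regulator of mRNA decay, Nr4a1 (0.845), an immediate early nuclear receptor, Il1rl2 (0.820), the receptor of interleukin 36, Nfkbiz (0.791), Pnrc1 (0.764), Ssbp2 (0.754), Psmb8 (0.745) and Ppp1r15a (0.738). The sums of 1 mouse share a library, and those of 1 class share their cells' makeup. Among the 10 themselves r was 0.721 (Junb) to 0.931 (Fos), apart from Ier3 at 0.414, which was the lowest.

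Of 32 other immediate early genes, 13 rose and none fell in IFE differentiated-like cells, where 3.57% of all genes were called higher, with a median of 0.44, led by the MAP kinase phosphatases Dusp2 (1.43 ± 0.237) and Dusp6 (1.06 ± 0.10) and the kinase Sgk1 (0.82 ± 0.0937; edgeR, adjusted p = 0.0111, 0.00115 and 0.00244). In IFE basal-like cells 9 of 32 rose (4.4% of all genes) and none fell, with a median of 0.13, led by Ccn2 (1.84 ± 0.43), Dusp6 (1.49 ± 0.189) and Dusp2 (1.11 ± 0.183). In keratinized cells 8 of 28 tested rose (2.34% of all genes). In uHF-like cells 4 of 32 rose and 6 fell (7.78% and 5.69% of all genes), with a median of 0.05, and with Gadd45a at 1.47, Sgk1 at 0.92 and Nr4a1 at -0.79. In T cell-like cells none of 30 and in Langerhans cell-like cells none of 24 was called (1.17% and 0.369% of all genes). At these shares such a list would hold few calls or none, so the 2 counts do not set it apart. These lists were chosen with results of these data known.

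Other lists were counted as well. Of 16 genes that carry MAP kinase input to these promoters, none of those tested was called in the IFE or immune classes. The genes tested and the share of all genes called were 16 and 7.32% in basal, 16 and 6.59% in differentiated and 14 and 4.21% in keratinized cells. They were 13 and 1.17% in T cell-like and 8 and 0.369% in Langerhans cell-like cells. At these shares a list of this size would hold few calls or none, so the counts do not set it apart. In uHF-like cells, where 7.78% of all genes were called higher, Map2k1 rose by 1.30 ± 0.187 (edgeR, adjusted p = 0.000668). Heat shock genes, which respond to another kind of stress, gave 2 higher and 1 lower of 13 in basal cells (4.4% and 2.91% of all genes). These were Hspa1a at 0.47, Hspa1b at 0.37 and Hsp90aa1 at -0.49. In differentiated cells 0 were higher and 1 lower, Hsp90aa1 at -0.71 (3.57% and 3.02% of all genes). In uHF-like cells 1 of 13 rose, Bag3 by 1.62, and 4 fell (7.78% and 5.69% of all genes), with a median of -0.24. In OB-like cells 2 of 13 fell (3.45% of all genes), with a median of -0.40.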

How the data were processed

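Single-cell libraries of dorsal epidermis from 2 control and 2 CerS4epi-/- mice were used. The authors trimmed reads with fastp 0.23.2, split the mice by sample tags and counted UMIs with STARsolo (STAR 2.7.10a) on GRCm39 with Gencode annotation, introns included. The deposited values are estimated counts, with reads of several genes shared by expectation maximization, neither normalized nor filtered for cells; the submitters' notes also name Scanpy 1.9.1 and Seurat.

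Everything else was computed anew (Python 3.11.15, R 4.3.3). Cells were barcodes of 1200 counts or more, with a mitochondrial share of 20% or less. Doublets were not called and are taken as present. Cells needed at least 3 distinct T cell, sebaceous, OB (with Lhx2 or Cd34) or IB markers, or 5 Langerhans cell markers; the rest went to the best of 4 keratinocyte lists if it led by 0.1. These limits were set with the data at hand but not on the 10 genes. Sums per mouse and class, rounded, were scaled by TMM and tested with the quasi-likelihood test of edgeR 4.0.16 (filterByExpr, Benjamini-Hochberg, threshold 0.05), in classes of at least 20 cells in every mouse, after a check on simulated counts; differences between classes carried the mouse as a block. Intervals are at 95%, and CPM are counts of a sum scaled to 1000000. Values after ± are SEs beside log2 fold changes and SDs beside levels. The sums held 151770 to 390203 counts in T cell-like and 10431277 to 14194579 in IFE basal-like cells, so the former are less precise. Nothing in the labels says that the 2 mice of a genotype were prepared apart, so p-values measure only the spread between these samples.

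Alternatives were DESeq2 1.42.0, its size factors, no count filter, a replicate block, each mouse left out, 2000 counts, 10% mitochondrial counts, a stricter gate and, added later, immune cells with at most 2% keratinocyte marker counts and 2 comparisons with differentiated cells. The genes named are the 10, up to 3 called genes of each other list in a class, and the 8 most similar genes. The list of other AP-1 subunits and bZIP partners is not reported here. The 10 genes and all lists were chosen with earlier results of these data known. The promoter window was lengthened to 500 bases after 250 bases held no CArG box in the 10 genes.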

Additional observations from a re-analysis of the deposited data

Results flagged for a closer look

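The genotype difference of 14 gene and class pairs differed between 2 classes in edgeR's test of the difference itself, with the mouse as a block. Against IFE basal-like cells, the log2 fold change of CerS4epi-/- over control mice was lower in uHF-like cells by -0.75 for Atf3, -0.63 for Fosb, -0.46 for Fos and -0.66 for Egr1. Against IFE differentiated-like cells it was lower in uHF-like cells by -1.23 for Atf3, -1.07 for Fosb, -0.81 for Fos, -1.03 for Egr1, -0.85 for Jun, -0.78 for Junb, -0.62 for Jund, -0.71 for Ier2 and -0.76 for Dusp1. Against the same class it was lower in T cell-like cells by -1.15 for Atf3, a value of -0.14 once T cells with over 2% keratinocyte marker counts were left out. The comparisons with differentiated cells were added after the changes within classes had been seen. No group held 4 mice, so single mice were not tested for standing apart.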

How the results depend on the processing

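The 2 mice per genotype set the main limit, and the immune and bulge sums, with the fewest counts, are the least certain. Of the alternative values of 38 counts and sums, 219 stayed close to the main value, 31 were larger and 42 smaller. Close meant within a fixed ratio for a count and within the spread of the mice for a sum. Whether the genes counted kept their direction was not compared. Of the alternative values of 55 single-gene results, 470 kept their direction and side of the threshold. A further 52 lost and 6 gained the call and 5 changed sign, all for uncalled Fos. Fos ran from -0.29 to 0.13 with a mouse left out in uHF-like cells (0.13 without control 1), from -1.36 to 0.39 in IB-like cells (0.39 without CerS4epi-/- 2) and from -0.09 to 0.21 in T cell-like cells (-0.09 without control 1, -0.06 without CerS4epi-/- 1), and was -0.01 in T cell-like cells at up to 10% mitochondrial counts. The cause of these changes was not tested.

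DESeq2 called 616 genes in IFE basal-like cells (949 by edgeR), 189 in keratinized (388), 638 in uHF-like (1433), 188 in OB-like (409), 58 in IB-like (249, and 0 of the 10 genes) and 28 in T cell-like cells (64). With no count filter edgeR called 1974 in basal, 1888 in differentiated (866 with it), 809 in keratinized, 737 in OB-like, 157 in T cell-like and 61 in Langerhans cell-like cells (12 with it). Of the 10 genes this gave 2 in OB-like and 1 in T cell-like cells, 7 for uHF-like minus basal and 8 for the uHF-like level. Up to 10% mitochondrial counts gave 509 genes in basal and 272 in OB-like cells, and 1 of the 10 for T cell-like minus basal. In T cell-like cells 2000 counts gave 28 genes and the stricter gate 6, with 1 in Langerhans cell-like cells. Up to 2% keratinocyte marker counts, chosen after seeing the data, gave 3 and 0 genes, and 0 of the 10 for T cell-like minus differentiated.

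With the replicate block, genes called were 1801 in basal, 2147 in differentiated, 785 in keratinized, 148 in IB-like, 167 in T cell-like and 4 in Langerhans cell-like cells, and of the 10 genes 2 in OB-like and 1 in T cell-like cells. Over all kept cells 4 of the 10 were called with the block against 6 without it, Fos, Jun and Jund being lost (edgeR, adjusted p = 0.0554, 0.0628 and 0.0657). With 2 pairs, whose same-number correlations ran from -0.183 to 0.17, the mice share only a number.

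Leaving out each mouse gave 2 to 10 of the 10 genes over all cells (1038 to 2246 of all genes), 2 to 6 in basal (301 to 1347), 5 to 10 in keratinized (257 to 429), 1 to 3 in uHF-like (838 to 1281), 0 to 8 in OB-like (106 to 665), 0 to 5 in IB-like (110 to 197), 0 to 1 in T cell-like (83 to 190) and 0 to 2 in Langerhans cell-like cells (31 to 136). It gave 1 to 7 for uHF-like minus basal, 0 to 1 for T cell-like minus differentiated, 3 to 8 for the uHF-like level and 3 to 5 for the Langerhans cell-like level. The stricter gate in both bulge classes and 10% mitochondrial counts in IB-like cells were not run, with under 20 cells in a mouse.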

Other observations

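Among Langerhans cell-like cells with at most 2% keratinocyte marker counts, the 10 genes summed to 18758 and 16156 CPM in the controls and 22479 and 19696 CPM in CerS4epi-/- mice, without overlap. Jund there lay at 2296 and 2535 CPM against 2781 and 2984 CPM. None of the 10 genes was called in these cells by edgeR. In T cell-like cells held to the same limit, Ier2 lay at 242 and 247 CPM against 303 and 405 CPM, with a log2 fold change of 0.54 ± 0.227 (edgeR, adjusted p = 0.601).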
